A study of Mus musculus with 10 samples.

Results

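The drug efflux transporters described here are 7 genes of the ATP-binding cassette (ABC) superfamily, chosen by name: Abcb1a, Abcb1b, Abcc1, Abcc2, Abcc3, Abcc4 and Abcg2. They are 7 of the 30295 gene rows in the deposited tables, and 6 of them passed the filter on low counts that left 15839 genes for testing. Abcb1b did not pass. The group was assembled with results of these libraries already known: Abcb1a and Abcc2 had stood among the genes with the smallest p-values in calorie-restricted against freely fed Lgr5 cells. The values of all 7 genes in that comparison are therefore given as a description, with no test.

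RNA was sequenced from intestinal stem cells of C57Bl/6 mice, sorted by flow cytometry, with 1 library per animal. The 4 groups were Hopx CR (n = 2), Hopx AL (n = 2), Lgr5 CR (n = 3) and Lgr5 AL (n = 3). CR mice were under calorie restriction and AL mice were fed ad libitum, that is, with free access to food. Hopx cells carried Hopx-CreER::LSL-tdTomato, in which a drug-inducible Cre under Hopx control removes a stop cassette and turns on a red reporter. This line marks slowly dividing reserve stem cells, and since the switch is permanent, daughter cells keep the reporter. Lgr5 cells carried Lgr5-EGFP-IRES-CreER, which places a green reporter and the same kind of Cre at the locus of the crypt-base stem cell gene Lgr5, and cells that have just left the stem cell state can still hold EGFP. Each of 5 isolations held 1 CR and 1 AL animal of the same line (isolations 1, 2 and 3 Lgr5, isolations 4 and 5 Hopx), so line and isolation cannot be told apart. No age or sex, and no degree or length of the restriction, is stated in the sources used here.

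ABC transporters are membrane proteins that use the energy of ATP to move substrates across a membrane. P-glycoprotein, encoded in mice by the neighbouring genes Abcb1a and Abcb1b, pumps hydrophobic drugs out of cells, and in the gut it sits on the luminal side of the epithelium. The multidrug resistance-associated proteins (MRPs) carry mostly organic anions, among them drugs and bile pigments joined to glutathione, glucuronic acid or sulfate. Abcc2 (MRP2) works at the luminal membrane, and Abcc1 (MRP1) and Abcc3 (MRP3) at the basolateral one. Abcc4 (MRP4) also exports cyclic nucleotides. Abcg2, the breast cancer resistance protein, is a luminal pump whose dye efflux defines the side population of stem cells in several tissues.

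The mouse genome places Abcb1a and Abcb1b side by side on chromosome 5, with 0 annotated genes between them. Abcc1 lies on chromosome 16, Abcc2 on chromosome 19, Abcc3 on chromosome 11, Abcc4 on chromosome 14 and Abcg2 on chromosome 6. Promoter windows are printed for the P-glycoprotein pair, because the pair's transcripts differ so widely in level, and for Abcc2, because its profile over the libraries is the nearest to that of Abcb1a. Each window holds the 250 bases before the RefSeq transcription start on build GRCm38.p6, read 5′ to 3′ on the plus strand. They come from RefSeq, since the deposited tables carry no coordinates. Capitals mark matches, on either strand, to these short motifs: the nuclear receptor half-site AGGTCA, the antioxidant response element core TGACNNNGC, the xenobiotic response element core GCGTG, the CCAAT box, the GC box GGGCGG and the TATA box TATAAA.

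Abcb1a, chr5:8566841-8567090:
Abcb1a: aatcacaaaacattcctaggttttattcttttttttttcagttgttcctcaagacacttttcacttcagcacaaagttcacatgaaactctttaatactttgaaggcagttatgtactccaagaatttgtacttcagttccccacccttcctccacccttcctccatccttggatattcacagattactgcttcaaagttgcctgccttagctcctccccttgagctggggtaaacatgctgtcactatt

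Abcb1b, chr5:8797897-8798146:
Abcb1b: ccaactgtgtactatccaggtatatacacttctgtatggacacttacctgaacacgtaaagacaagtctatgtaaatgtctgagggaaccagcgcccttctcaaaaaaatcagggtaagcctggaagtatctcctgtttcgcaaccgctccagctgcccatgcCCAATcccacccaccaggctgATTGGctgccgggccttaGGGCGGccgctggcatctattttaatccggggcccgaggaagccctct

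Abcc2, chr19:43782058-43782307:
Abcc2: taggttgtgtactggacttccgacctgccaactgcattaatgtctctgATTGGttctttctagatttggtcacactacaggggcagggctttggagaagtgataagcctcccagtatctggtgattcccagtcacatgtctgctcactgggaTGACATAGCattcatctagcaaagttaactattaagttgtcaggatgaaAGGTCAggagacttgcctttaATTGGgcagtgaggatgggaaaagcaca

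The Abcb1a window held 0 matches, 40.4% G and C, and 0 CpG dinucleotides. The Abcb1b window held 2 CCAAT boxes and 1 GC box, 52.8% G and C, and 9 CpG dinucleotides. The Abcc2 window held 1 nuclear receptor half-site, 1 antioxidant response element core and 2 CCAAT boxes, with 45.6% G and C and 1 CpG. Over 32851 such windows the median was 52.4% G and C and 6 CpG. Of all windows, 14% held the half-site, 10.2% the antioxidant core, 33.8% a CCAAT box and 32.7% a GC box, so each of these motifs is common. The xenobiotic core stood in 28.2% of windows, and the TATA box in 12.4%, and neither matched in the printed windows. The matches describe letters only, since no binding was measured. Nor was it measured where transcripts began in these cells. The Abcb1a window, like the others, may therefore not be the promoter of the transcripts counted here. RefSeq windows were at hand for 5 of the 7 genes, the others being Abcg2 and Abcc4.

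Depth ran from 20.3 M estimated counts (Lgr5 AL replicate 3) to 87.2 M (Hopx CR replicate 1), so the 6 tested transporters rest on 275 to 19303 counts in each library. Lgr5 mRNA averaged 114 CPM (counts scaled to a common library total) in Hopx CR, 78.6 in Hopx AL, 219 in Lgr5 CR and 155 in Lgr5 AL. Hopx mRNA averaged 99.1, 108, 150 and 127 CPM in the same groups, and neither Hopx group exceeded an Lgr5 group in this mean. Transcripts of other epithelial cells were plentiful. The 15 enterocyte markers, genes of the absorptive cells where these pumps are known to be abundant, summed to 20601 to 23022 CPM in Hopx CR, 8345 to 12574 in Hopx AL, 21878 to 30277 in Lgr5 CR and 5887 to 28885 in Lgr5 AL. In bulk RNA, fewer cells of a type and less RNA per cell cannot be told apart.

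The order of the transporters by mean TPM (transcript abundance scaled to a common total, which allows for transcript length) was the same in all 4 groups. Abcg2 was highest, followed by Abcc3, Abcb1a, Abcc2, Abcc1, Abcc4 and Abcb1b. Abcg2 averaged 86.6 ± 1.82 TPM in Hopx CR, 53.2 ± 8.996 in Hopx AL, 101 ± 9.69 in Lgr5 CR and 81.4 ± 32.0 in Lgr5 AL (SD). Abcc3 averaged 44.2 ± 4.25, 22.4 ± 3.82, 61.6 ± 4.46 and 30.9 ± 1.21 TPM in these groups. Not all neighbours in the order were separate beyond their spread. The libraries of Abcc3 and Abcb1a overlapped in Lgr5 CR, those of Abcb1a and Abcc2 in Lgr5 CR and Lgr5 AL, those of Abcc2 and Abcc1 in Hopx AL and Lgr5 AL, and those of Abcc1 and Abcc4 in Lgr5 CR. Summed over the 7 genes, the level was 191.6 and 189.9 TPM in Hopx CR, 92.1 and 92.6 in Hopx AL, 338.1, 218 and 255.4 in Lgr5 CR, and 170.8, 116.3 and 123.2 in Lgr5 AL. Within each line, every CR library thus stood above every AL library in this sum. The sum includes Abcb1a and Abcc2, which the Lgr5 libraries had named, so this is a description only. On the log2(TPM + 1) scale the median of all genes itself lay at 0.24 in Hopx CR against AL and at -0.15 in Lgr5 CR against AL. Abcb1a made up 18.4% and 20.03% of the sum in Hopx CR, 12.9% and 5.68% in Hopx AL, 27.3%, 13.1% and 22.8% in Lgr5 CR, and 4.36%, 6.01% and 7.35% in Lgr5 AL.

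**Figure D1:**
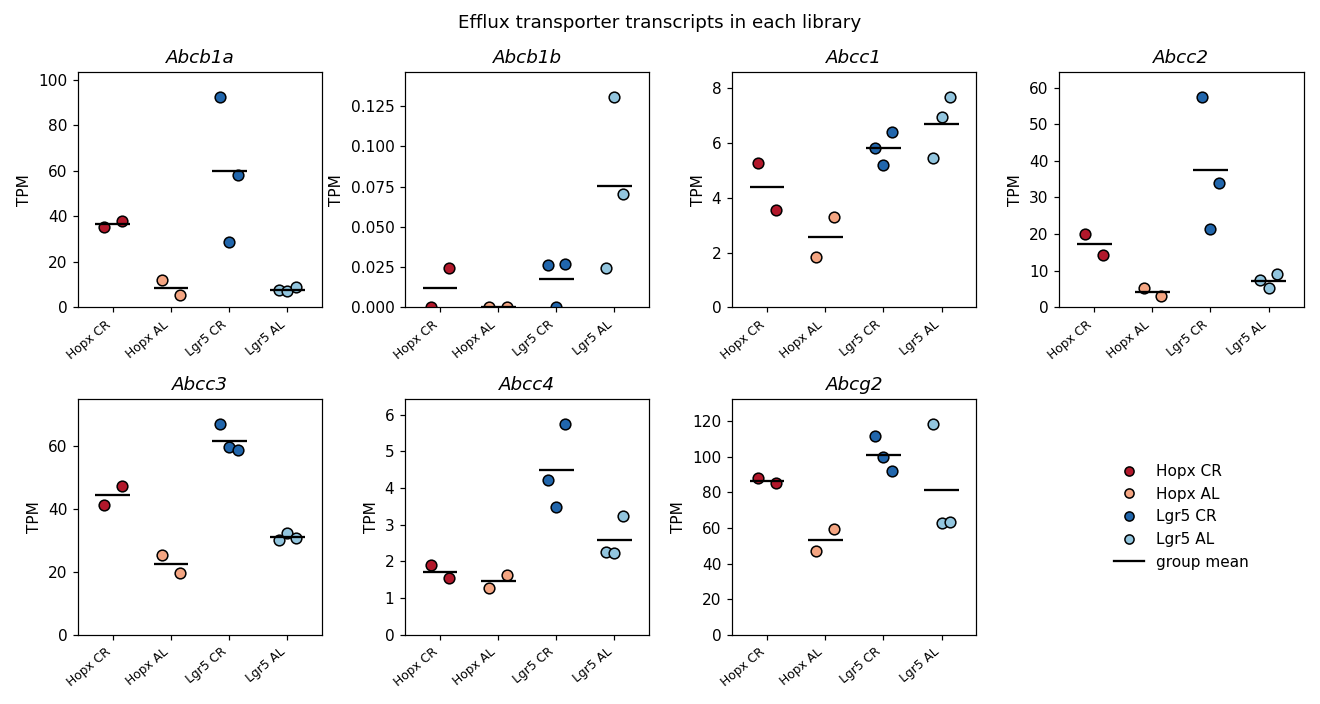
Level of each transporter (TPM, linear axis from 0, own scale per gene) in each library, with the points of Hopx CR, Hopx AL, Lgr5 CR and Lgr5 AL side by side and a bar at the group mean. Abcb1a, Abcc2 and Abcc3 stand higher in every CR library than in any AL library of the same line, and Abcb1b is at most 0.131 TPM. The share of all genes with this pattern in TPM was not computed.

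Abcb1a had the widest range of the set over the 10 libraries, from 26.9 to 411 CPM, or 15.3-fold. Its level was 35.3 and 38.0 TPM in Hopx CR, against 11.9 and 5.26 TPM in Hopx AL. In Lgr5 CR it was 92.4, 28.5 and 58.3 TPM, against 7.44, 6.99 and 9.06 TPM in Lgr5 AL. The AL libraries of both lines thus lay at or under 11.9 TPM and the CR libraries at or over 28.5 TPM, with no overlap. For such separations in TPM, here and for the transporters below, the share over all genes was not computed. On the log2(TPM + 1) scale 74.02% of genes had a higher point estimate in Hopx CR than in Hopx AL. In Lgr5 CR against AL it was 32.03%. In CPM, 21.5% of all genes were higher in both Hopx CR libraries and 7.41% in every Lgr5 CR library. The Lgr5 libraries had also named Abcb1a and Abcc2, so the separation is a description only. Lgr5 CR replicate 1 was the highest library and replicate 2 of the same group the lowest under CR.

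Abcb1b, the second P-glycoprotein gene, was at or near 0 everywhere. Its estimated counts were 0 and 5 in Hopx CR, 0 and 0 in Hopx AL, 4, 0 and 8 in Lgr5 CR, and 3, 21 and 4 in Lgr5 AL. The highest level, 0.131 TPM, was in Lgr5 AL replicate 2, and it made up at most 1.83% of the pair's summed TPM. A count of 0 allows up to 3 counts, which is 0.0344 to 0.0993 CPM in the 4 libraries at 0, for counting error only. Of the 31-base words in Abcb1a transcripts, 28.2% also occur in another annotated gene, 21.7% in Abcb1b. Reads from such words may be divided between the paralogs, and an antisense gene model overlaps exons of each of the pair, which these unstranded libraries cannot tell apart. Sharing of such words was 3.23% or less for the 5 other transporters, so their reads were close to unique.

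Abcc2, the luminal MRP, was 20.1 and 14.3 TPM in Hopx CR, against 5.16 and 3.11 TPM in Hopx AL. The Lgr5 CR libraries had 57.4, 21.4 and 34.0 TPM, against 7.41, 5.21 and 9.20 TPM in Lgr5 AL. As for Abcb1a, no AL library reached the level of a CR library, and Lgr5 CR replicate 1 was highest and replicate 2 lowest of its group.

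Abcc3, the basolateral MRP that returns conjugates to the blood, was 41.2 and 47.2 TPM in Hopx CR, against 25.1 and 19.7 TPM in Hopx AL. Its level in Lgr5 CR was 66.7, 59.4 and 58.6 TPM, against 29.9, 32.3 and 30.6 TPM in Lgr5 AL. Its CR and AL libraries did not overlap in either line, and in Lgr5 cells they lay close together within each diet.

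Abcc4, the cyclic nucleotide exporter, was 1.89 and 1.53 TPM in Hopx CR, against 1.28 and 1.63 TPM in Hopx AL, and these groups overlapped. In Lgr5 CR it was 4.23, 3.48 and 5.73 TPM, against 2.26, 2.24 and 3.23 TPM in Lgr5 AL, with no overlap. The Lgr5 CR libraries held the highest 3 values of the 10.

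Abcc1, the broadly expressed MRP, was 5.27 and 3.53 TPM in Hopx CR, against 1.84 and 3.31 TPM in Hopx AL. Levels in Lgr5 CR were 5.82, 5.19 and 6.38 TPM, against 5.44, 6.96 and 7.67 TPM in Lgr5 AL. It had the narrowest range of the set, 2.11-fold in CPM, and its Lgr5 groups overlapped.

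Abcg2 was 87.8 and 85.3 TPM in Hopx CR, against 46.8 and 59.5 TPM in Hopx AL, with no overlap. These libraries did not overlap in CPM either, as for 21.5% of all genes in that direction. In Lgr5 CR it was 112, 100 and 92.3 TPM, against 118, 62.5 and 63.4 TPM in Lgr5 AL. Here Lgr5 AL replicate 1 was the highest library of all, above every CR library, while replicates 2 and 3 were below them.

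The test of diet in Hopx cells, a comparison not used to choose the genes, called none of the 6 tested transporters. With edgeR's quasi-likelihood test and Benjamini-Hochberg adjustment over all tested genes, 0.0126% of genes passed at 0.05 (2 genes, both lower in Hopx CR, and 0 with isolation as a block). Abcb1a differed by 1.71 log2 units (SE 0.540, adjusted p = 0.495) and Abcc2 by 1.71 (SE 0.471, adjusted p = 0.478), that is 3.28-fold and 3.26-fold. Abcc3 differed by 0.65 (SE 0.281, adjusted p = 0.578), Abcc1 by 0.54 (SE 0.264, adjusted p = 0.598) and Abcg2 by 0.43 (SE 0.381, adjusted p = 0.778). Abcc4 differed by -0.04 (SE 0.262, adjusted p = 0.973). Each point estimate but that of Abcc4 was higher in Hopx CR. Without the adjustment, Abcb1a, Abcc2 and Abcc3 had p under 0.05, as did 5.41% of all genes in that direction. DESeq2, which called 0.922% of its genes, called Abcc2 (1.71, SE 0.478, adjusted p = 0.0437) and not Abcb1a (adjusted p = 0.0823). The CPM values of 4 transporters, Abcb1a, Abcc2, Abcc3 and Abcg2, were higher in both Hopx CR libraries than in both Hopx AL libraries, a pattern seen in 21.5% of all genes. The size for Abcb1a depends on single libraries: leaving out replicate 1 of Hopx AL gave 2.73, and leaving out its replicate 2 gave 1.13. Abcc2 was 2.40 without Hopx AL replicate 1 and 1.24 without its replicate 2. Abcc1 was 0.19 without Hopx CR replicate 1, and Abcc3 was 1.09 and 0.31 without Hopx AL replicates 1 and 2.

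In Lgr5 cells, where the choice of genes used the comparison, the differences are listed as a description. Abcb1a averaged 264 ± 140 CPM in Lgr5 CR and 30.2 ± 3.20 CPM in Lgr5 AL (SD, n = 3 each), a log2 fold change of 3.13 (SE 0.467). Abcc2 averaged 181 ± 86.97 CPM in Lgr5 CR and 30.0 ± 5.73 CPM in Lgr5 AL, or 2.59 (SE 0.398). Abcc3 stood at 1.18 (SE 0.232), Abcc4 at 1.02 (SE 0.216) and Abcg2 at 0.46 (SE 0.312). Abcc1 averaged 29.3 ± 1.84 CPM in Lgr5 CR and 29.3 ± 4.45 CPM in Lgr5 AL, a log2 fold change of -0.00017 (SE 0.215). The 4 transporters with no overlap were Abcb1a, Abcc2, Abcc3 and Abcc4, beside 7.41% of all genes that were higher in every Lgr5 CR library, and 0.0189% of genes passed edgeR's adjusted threshold (3 genes, and 0 with isolation as a block). Nothing is read from these counts. The size for Abcg2 depends on single libraries: it was 0.97 without Lgr5 AL replicate 1, its highest library, and 0.17 without Lgr5 AL replicate 3. Whether the diet effect differs between Lgr5 and Hopx cells was not tested.

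In all 5 isolations the CR animal had more Abcb1a than the AL animal, by 3.61, 2.11 and 3.19 log2 CPM units in isolations 1, 2 and 3 (Lgr5) and by 1.09 and 2.74 in isolations 4 and 5 (Hopx). Abcc2 differed by 2.93, 2.11 and 2.39 in the Lgr5 isolations and by 1.48 and 2.07 in the Hopx isolations. Abcc3 differed by 1.15, 0.97 and 1.46 and by 0.24 and 1.16. These 3 genes were higher under CR in every isolation, as were 8.713% of all tested genes. Isolations 1 to 3 hold the libraries that named Abcb1a and Abcc2, so nothing is read from this count. Abcc4 was higher in the 3 Lgr5 isolations, by 0.71 to 1.31, and differed by 0.08 and -0.18 in the Hopx ones. Abcg2 differed by -0.09 in isolation 1 and by 0.42 to 1.06 in the other isolations. Abcc1 was between -0.32 and 0.26 in 4 isolations and 1.02 in isolation 4.

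**Figure D2:**
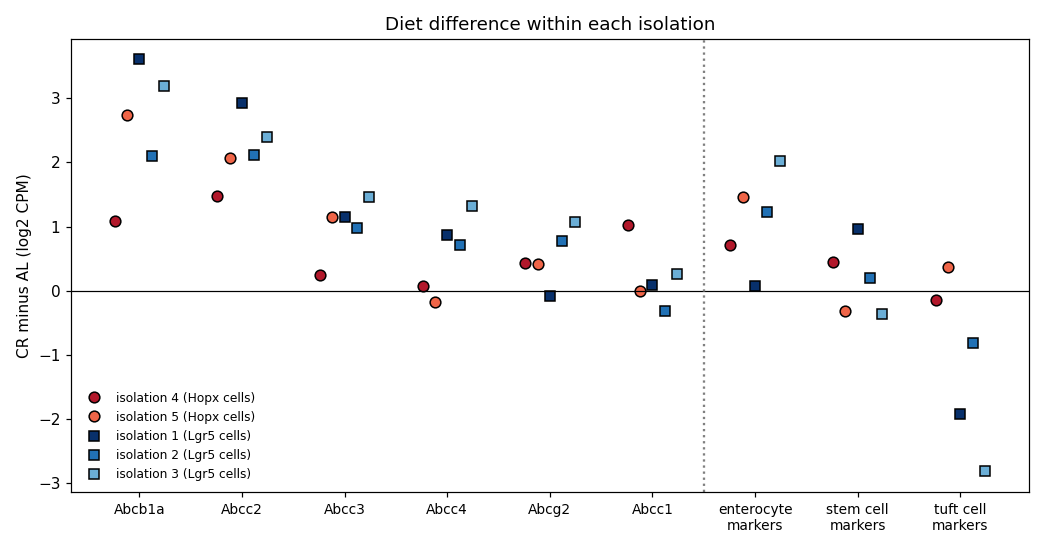
CR minus AL difference in log2 CPM within each isolation (circles Hopx, squares Lgr5) for the 6 tested transporters and, right of the dotted line, for the summed enterocyte, stem cell and tuft cell markers. Abcb1a, Abcc2 and Abcc3 lie above 0 in all 5 isolations, and the enterocyte sum lies between 0.07 and 2.02, with single markers such as Apob differing by more than the sum in isolation 1.

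Markers of mature enterocytes were read beside the transporters. All 15 enterocyte markers, a list chosen with earlier results of these libraries known, had a higher point estimate in CR in both lines. In Hopx cells 14 of 15 (21.5% of all genes in that direction) and in Lgr5 cells 5 of 15 (7.41%) did not overlap between diets. At edgeR's adjusted threshold 0 passed in either line. In Hopx cells 4 had an unadjusted p under 0.05 (5.41% of all genes in that direction) and DESeq2 called 2 (0.922%). In Lgr5 cells 6 had an unadjusted p under 0.05 (9.78% of all genes, either direction) and DESeq2 called 4 (2.45%). Apob, the structural protein of chylomicrons, averaged 713 CPM in Hopx CR and 169 CPM in Hopx AL, and 809 CPM in Lgr5 CR and 216 CPM in Lgr5 AL. The summed list differed between CR and AL by 0.07, 1.22 and 2.02 log2 units in isolations 1, 2 and 3 and by 0.71 and 1.46 in isolations 4 and 5. In isolation 1 the sums were 30277 CPM in CR and 28885 CPM in AL, but single markers differed widely there. Apoa4, an abundant apolipoprotein, had 7477 CPM in CR and 7507 CPM in AL, while Apob had 1418 CPM in CR and 273 CPM in AL. The fructose transporter Slc2a5 had 347 CPM in CR and 78.5 CPM in AL, and the sucrase gene Sis 579 CPM in CR and 186 CPM in AL. In that isolation 9 of the 15 markers were higher in CR and 6 lower, with a median difference of 0.21 in log2(CPM + 0.5), and 14 or 15 were higher in CR in each of the other isolations, with medians of 0.99 to 2.12.

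Marker sums of other cell types were set beside them. The 10 tuft cell markers summed to 95.7 to 162 CPM in Lgr5 CR and 286 to 677 CPM in Lgr5 AL, and to 265 to 504 CPM in Hopx CR and 205 to 555 CPM in Hopx AL. All 10 had a lower point estimate in Lgr5 CR than in Lgr5 AL, and 3 were higher and 7 lower in Hopx CR. In Lgr5 cells edgeR called 0, 9 had an unadjusted p under 0.05 (9.78% of all genes, either direction) and DESeq2 called 9 (2.45%). The 12 T and immune cell markers summed to 67.0 to 94.7 CPM in Hopx CR, 194 to 314 in Hopx AL, 74.6 to 163 in Lgr5 CR and 49.05 to 283 in Lgr5 AL. All 12 had a lower point estimate in Hopx CR than in Hopx AL, and 4 were higher and 8 lower in Lgr5 CR. In Hopx cells edgeR and DESeq2 each called 0 (0.922% of all genes with DESeq2). The 8 Paneth cell markers found summed to 62505 to 99440 CPM in Hopx CR, 83279 to 206842 in Hopx AL, 48058 to 66684 in Lgr5 CR and 16267 to 65924 in Lgr5 AL. The 10 enteroendocrine markers summed to 3051 to 7965 CPM in Hopx CR, 8005 to 8272 in Hopx AL, 778.3 to 4283 in Lgr5 CR and 1408 to 2650 in Lgr5 AL. All 10 had a lower point estimate in Hopx CR than in Hopx AL, and 8 were higher and 2 lower in Lgr5 CR. DESeq2 called 0 of them in Hopx cells (0.922% of all genes) and 1 in Lgr5 cells (2.45%). The 8 goblet cell markers summed to 8458 to 10001 CPM in Hopx CR, 5385 to 10798 in Hopx AL, 3886 to 5851 in Lgr5 CR and 3078 to 6572 in Lgr5 AL. The 11 stem cell markers summed to 3512 to 4409 CPM in Hopx CR, 3237 to 4402 in Hopx AL, 7205 to 8535 in Lgr5 CR and 4391 to 10584 in Lgr5 AL, overlapping between diets in each line. Sums of endothelial and stromal markers, of interest since blood vessels of some tissues carry P-glycoprotein, were at most 8.84 and 3.01 CPM, with the stromal gene Lum at 0 in every group and the endothelial genes Kdr and Emcn at 0 in both AL groups. The part of these cell types in the transporter differences was not tested.

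The fold changes also varied with transcript length. All 6 tested transporters are among the longest of 4 equal classes of tested genes by length, with a longest annotated transcript of at least 4997 bases. The median log2 fold change of that class was 0.15 in Hopx CR against AL and 0.11 in Lgr5 CR against AL, and that of the shortest class -0.22 and -0.05. In Hopx against Lgr5 cells it was -0.10 under AL and -0.06 under CR for the longest class, against 0.24 and 0.11 for the shortest. The part of length in the values above was not tested.

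The lines were then compared within each diet, in comparisons that share the Lgr5 libraries which had named Abcb1a and Abcc2. Under AL, none of the 6 tested transporters passed in Hopx against Lgr5 cells by edgeR's test (0.0189% of genes passed), 1 was lower at an unadjusted p under 0.05, as were 8.41% of genes, and DESeq2 called 0 (8.11% of genes). That gene was Abcc1, which averaged 19.0 ± 3.94 CPM in Hopx AL and 29.3 ± 4.45 CPM in Lgr5 AL (log2 fold change -0.63, SE 0.245, adjusted p = 0.225) and was lower in both Hopx AL libraries than in all 3 Lgr5 AL libraries, as were 15.8% of genes. In log2(TPM + 1), Abcc1 stood at -1.12 beside a median of -0.62 over all genes (limma adjusted p = 0.0237), where 28.6% of genes were called lower in Hopx AL (3652 of 12753). Abcb1a differed by 1.02 (SE 0.476, adjusted p = 0.297), and by -0.02 without Hopx AL replicate 1. Abcc2, Abcc3, Abcc4 and Abcg2 differed by 0.07, 0.35, -0.02 and 0.10, with SEs of 0.240 to 0.420 and edgeR adjusted p of 0.519 to 0.979.

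Under CR, none of the 6 passed in Hopx against Lgr5 cells by edgeR's test (0.0189% of genes passed), and 1 was lower at an unadjusted p under 0.05, as were 2.99% of genes. Abcc4 averaged 10.9 ± 1.83 CPM in Hopx CR and 23.1 ± 5.00 CPM in Lgr5 CR (log2 fold change -1.08, SE 0.247, edgeR adjusted p = 0.391). It was lower in both Hopx CR libraries than in all 3 Lgr5 CR libraries, as were 11.4% of genes, and DESeq2, which called 1.1% of genes, called it (adjusted p = 0.00244). Abcc2 differed by -0.82 (SE 0.428, adjusted p = 0.852), by -0.38 without Lgr5 CR replicate 1 and by -1.11 without Hopx CR replicate 1. Abcb1a differed by -0.39 (SE 0.485, adjusted p = 0.967), and by 0.07 without Lgr5 CR replicate 1. Abcc1, Abcc3 and Abcg2 differed by -0.09, -0.18 and 0.07, with SEs of 0.240 to 0.347 and edgeR adjusted p of 0.97 to 0.997. Lines were never processed in one isolation, so these differences cannot be told apart from those between isolations.

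Profiles were compared among 11725 tested genes with a mean of at least 1 CPM. Predicted genes, clone-named genes, pseudogenes, mitochondrial genes and repeated symbols were left out. Among these 11725 genes, the profile nearest to that of Abcb1a over the 10 libraries was that of Abcc2. Likeness was measured as the root mean square distance between centred log2(CPM + 0.5) values, which was 0.435 for this pair, against a spread of 1.40 for Abcb1a and 1.21 for Abcc2 about their own means. Both genes were chosen from Lgr5 CR against AL, and 6 of the 10 libraries are those libraries, so the choice favours their likeness and it is a description only. The next genes for Abcb1a were Mfsd7c, a member of the major facilitator superfamily (0.440), and Gstm1, a glutathione transferase (0.452). For Abcc2 they were Mfsd7c (0.363, the nearest), Abcb1a and the carboxylesterase Ces2a (0.448), which hydrolyses ester drugs. Gstm1 had 810 and 593 CPM in Hopx CR, 412 and 128 in Hopx AL, 748, 724 and 639 in Lgr5 CR, and 137, 142 and 86.4 in Lgr5 AL. Ces2a had 404 and 475 CPM in Hopx CR, 228 and 78.3 in Hopx AL, 544, 433 and 454 in Lgr5 CR, and 183, 108 and 86.2 in Lgr5 AL. In both, as in Abcb1a, Hopx AL replicate 1 stood well above Hopx AL replicate 2. Among the 11725 genes, Abcc3 was the 79th nearest to Abcb1a (0.892), Abcc4 the 790th, Abcg2 the 841st and Abcc1 the 5037th.

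**Figure D3:**
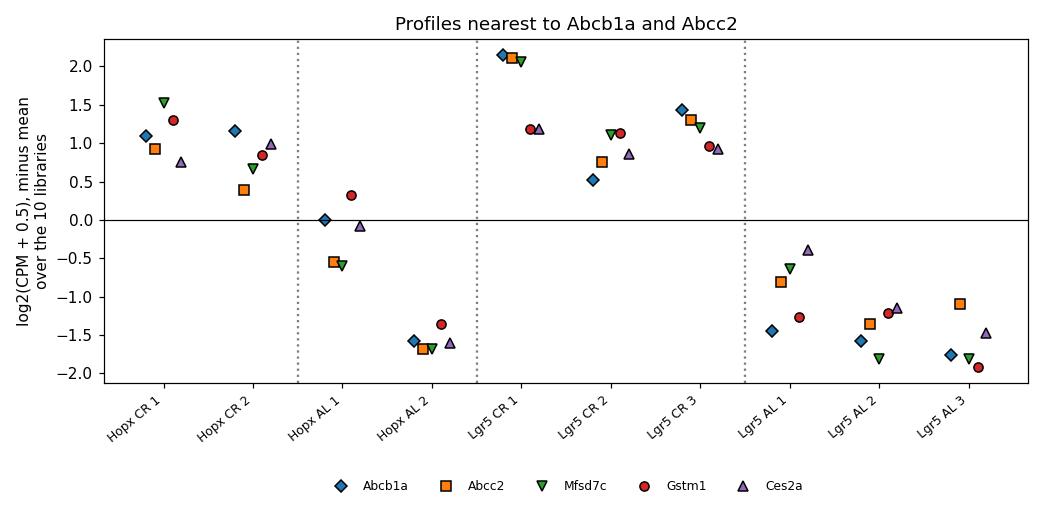
log2(CPM + 0.5) of Abcb1a, Abcc2 and their nearest genes Mfsd7c, Gstm1 and Ces2a in each of the 10 libraries, each gene minus its own mean, with dotted lines between groups. All 5 genes lie above their mean in the 5 CR libraries and below it in Hopx AL replicate 2 and the 3 Lgr5 AL libraries. In Hopx AL replicate 1, Gstm1 lies above its mean and Abcc2, Mfsd7c and Ces2a below theirs.

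Abcc3 was nearest to the thiamine transporter Slc19a3 (0.145), the glycosyltransferase Gcnt2 (0.169) and the threonine aldolase Tha1 (0.202). Abcc4 was nearest to Jrk (0.123), Arid5a (0.201) and Megf6 (0.211), and Abcg2 to Dhrs1 (0.110), Ttyh2 (0.113) and Acy3 (0.124). Abcc1 was nearest to the Golgi tethering gene Cog2 (0.109), Fam83d (0.112) and Ppp1r37 (0.124). Small distances are easier to reach for genes of small spread, and that of Abcc1 was 0.309.

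The rest of the ABC superfamily gave a frame for these values. This list and those below were chosen with earlier results of these libraries known, so their counts are descriptions only. Most genes named from them are those with the smallest p in the same comparisons. Of 46 other ABC genes, 34 were tested. Between Hopx CR and Hopx AL, 29 had a higher and 5 a lower point estimate, with a median of 0.35 beside -0.02 over all tested genes. Here edgeR called 0, 6 were higher at an unadjusted p under 0.05 (5.41% of all genes) and DESeq2 called 1 (0.922%). In Lgr5 CR against AL, 22 were higher and 12 lower, with a median of 0.12 beside 0.02, and edgeR called 0, 4 had an unadjusted p under 0.05 (9.78% of all genes) and DESeq2 called 1 (2.45% of all genes). The 6 tested efflux transporters, which leave out Abcb1b, had medians of 0.59 and 1.10 in these comparisons, as a description only.

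The largest point estimate of the tested ABC genes in both lines was that of Abca1, which loads cellular cholesterol onto lipoproteins. It had 28.4 and 34.3 CPM in Hopx CR, against 8.40 and 3.31 CPM in Hopx AL (log2 fold change 2.42, SE 0.728, edgeR adjusted p = 0.479). In Lgr5 CR it had 55.1, 27.8 and 40.5 CPM, against 7.49, 1.11 and 4.06 CPM in Lgr5 AL (3.30, SE 0.622, edgeR adjusted p = 0.171). Abcg8, which with Abcg5 returns plant sterols to the gut lumen, averaged 154 CPM in Hopx CR and 64.8 CPM in Hopx AL, and 192 CPM in Lgr5 CR and 98.4 CPM in Lgr5 AL (0.96, adjusted p = 0.491). Abcd3, a carrier of fatty acids into peroxisomes, averaged 273 CPM in Lgr5 CR and 165 CPM in Lgr5 AL (0.73, adjusted p = 0.327). Abca2 differed by 0.85 in Hopx CR against AL (adjusted p = 0.504) and by -0.38 in Lgr5 CR against AL. Abcb6, a porphyrin transporter, differed by 0.62 in Hopx CR against AL (adjusted p = 0.504). The group of ABCE and ABCF genes, which have no membrane part and act in translation, had medians of 0.15 in Hopx cells and -0.04 in Lgr5 cells over 4 tested genes.

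**Figure D4:**
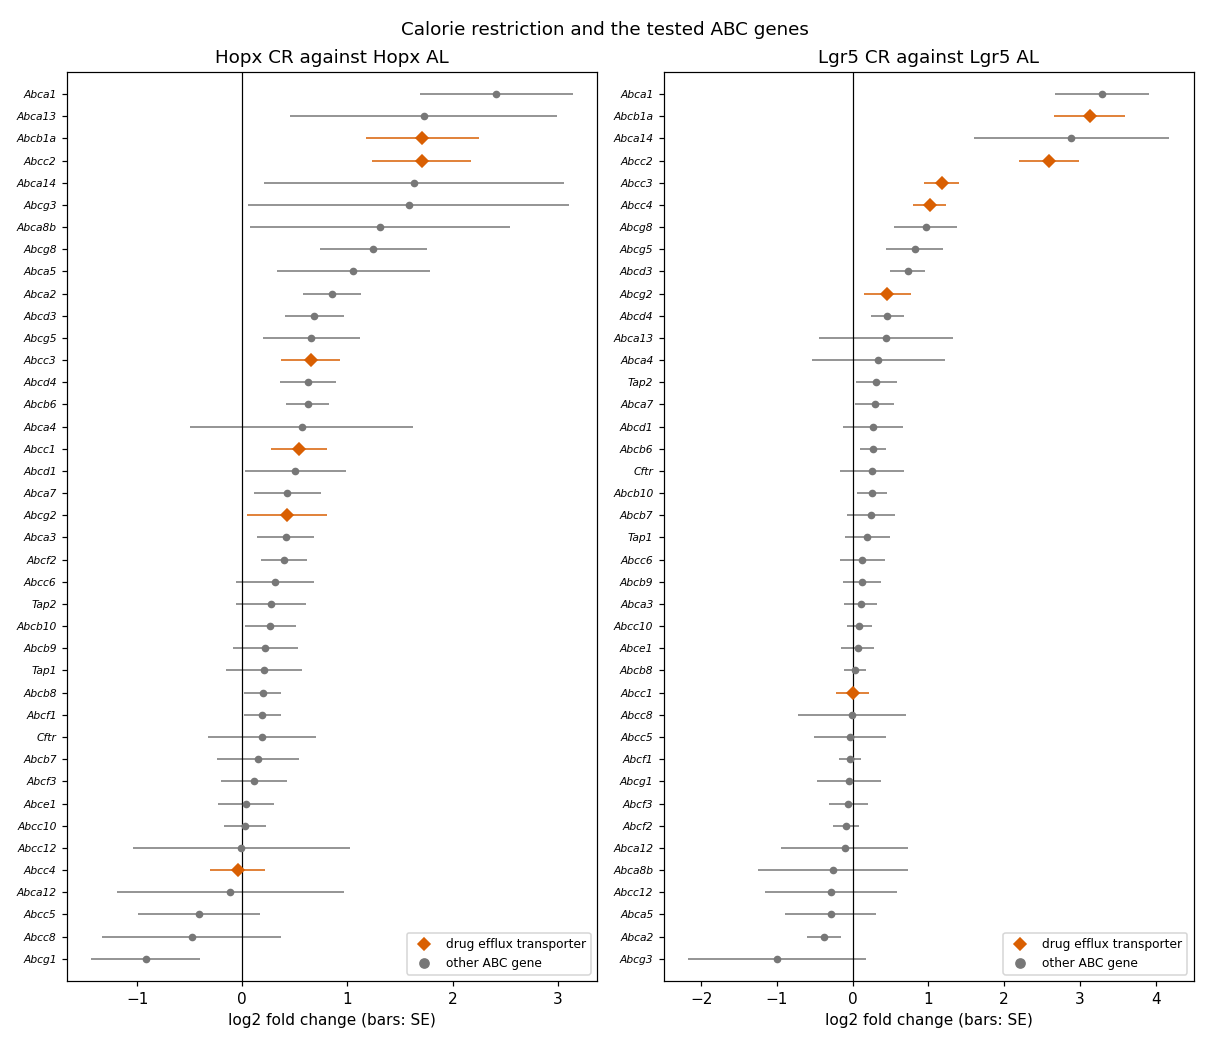
log2 fold change of CR against AL (points, with SE as bars) for the 6 tested efflux transporters (diamonds) and 34 other tested ABC genes (circles), in Hopx cells on the left and Lgr5 cells on the right, sorted by value. Abca1 is at the top in both, with Abcb1a and Abcc2 among the next 3, while Abcc1 (-0.00017 in Lgr5) and Abcc4 (-0.04 in Hopx) lie near 0.

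Transcription factors known to regulate efflux pumps were all tested, 18 of 18. Between Hopx CR and Hopx AL all 18 had a higher point estimate (median 0.33) and 13 did not overlap between diets (21.5% of all genes in that direction), but edgeR called 0, 7 had an unadjusted p under 0.05 (5.41%) and DESeq2 called 1 (0.922%). The intestinal homeobox factor Cdx2 differed by 0.68 (SE 0.182, adjusted p = 0.478) and the nuclear receptor Hnf4g by 0.91 (SE 0.343, adjusted p = 0.531). In Lgr5 CR against AL 14 were higher and 4 lower (median 0.27), and 5 were higher without overlap (7.41% of all genes). There edgeR called 0, and 4 higher and 1 lower had an unadjusted p under 0.05 (9.78% of all genes, either direction). DESeq2 called 2 (2.45% of all genes). Hnf4g differed by 1.09 (SE 0.282, adjusted p = 0.242), the bile acid receptor Nr1h4 by 0.81 (SE 0.178, adjusted p = 0.19) and Cdx2 by 0.38 (SE 0.148, adjusted p = 0.449). The drug sensor Nr1i2 (pregnane X receptor) averaged 22.1 CPM in Hopx CR and 20.9 CPM in Hopx AL, and 25.8 CPM in Lgr5 CR and 22.1 CPM in Lgr5 AL. Nfe2l2, the factor that binds antioxidant response elements, averaged 250 CPM in Hopx CR and 210 CPM in Hopx AL, and 177 CPM in Lgr5 CR and 142 CPM in Lgr5 AL.

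The enzymes that make the conjugates carried by MRPs were also measured. Of 28 conjugating enzymes, all tested, 26 had a higher point estimate in Lgr5 CR than in Lgr5 AL (median 0.65), and 13 did not overlap (7.41% of all genes in that direction). Here edgeR called 0, 13 had an unadjusted p under 0.05 (9.78% of all genes, either direction) and DESeq2 called 11 (2.45%). The list was chosen with earlier results of these libraries known, so nothing is read from its counts. The genes named next are those with the smallest p of the list. The glutathione transferases Gstm1, Gstm4 and Mgst1 differed by 2.53 (SE 0.391, adjusted p = 0.134), 1.48 (SE 0.262, adjusted p = 0.162) and 1.14 (SE 0.204, adjusted p = 0.162). Between Hopx CR and Hopx AL 21 were higher and 7 lower (median 0.46). Without overlap, 11 were higher (21.5% of all genes) and 2 lower, for which no share of all genes is given. There edgeR called 0, 6 had an unadjusted p under 0.05 (5.41% of all genes in that direction) and DESeq2 called 0 (0.922%). Gstm4 differed by 1.06 (SE 0.316, adjusted p = 0.478), Gstm1 by 1.38 (SE 0.461, adjusted p = 0.504) and the sulfotransferase Sult1d1 by 0.75 (SE 0.299, adjusted p = 0.550). Glutathione transferase genes are close relatives, so reads may be split among them.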

How the data were processed

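Per the labels' protocols, RNA from sorted cells was amplified with SMART-Seq v4, made into Nextera XT libraries and sequenced on a NextSeq 500. The kits mark neither single molecules nor strand, so counting intervals and floors cover counting error only. The authors deposited estimated counts per gene and TPM for 30295 rows and 10 libraries. Per the submitters' processing notes kallisto and edgeR were used, with the human build GRCh38, although the symbols are mouse. Versions and annotation: not given in the sources used here. The deposited TPM columns sum to 943114 to 972945, and 27 rows bear spreadsheet dates for names.

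Estimated counts were rounded, filtered with filterByExpr at 10, scaled by TMM and fitted with edgeR 4.0.16 (R 4.3.3), with 4 group means over 10 libraries and quasi-likelihood tests. Benjamini-Hochberg adjustment ran over the 15839 tested genes at 0.05, two-sided. The biological coefficient of variation was 0.389. The SE is the log2 fold change divided by the square root of F. CPM are TMM-normalized. Alternatives used DESeq2 1.42.0, limma 3.58.1 on log2(TPM + 1) and log2(TPM + 0.1), other scaling, no filter, isolation as a block and each library left out. The fit was tested on simulated data. The changed genes were drawn from those above a minimum mean CPM, and the spread of each gene was taken from the same fit. No differences between isolations or in cell types were simulated. The recovered shares below therefore do not measure the power of the tests in these libraries. At a true log2 change of 1.5 it recovered 58 of 100 changed genes in Hopx CR against AL and 81 of 100 in Lgr5 CR against AL. At 3.0 it recovered 96 and 99 of 100. False calls numbered 9 and 4 in these comparisons. Each library is 1 animal. The isolation number in the labels pairs CR with AL animals; deviations from group means correlated by 0.0825, 0.208 and 0.0712 in isolations 1, 2 and 3 and by 0.0447 in isolations 4 and 5, where with 2 libraries a group the values mirror each other. Correlations of log2 CPM within groups were 0.957 to 0.982.

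The members and lists were chosen with earlier results of these data known. Genes named from a list are the up to 3 with the smallest p in each diet comparison, plus the 3 nearest profiles of each member; some genes that this rule takes are not reported here. Nr1i2 and Nfe2l2, and the values of Abcg8 in Hopx cells and of Abca2 in Lgr5 cells, were added after their values were seen. Transcript lengths, shared 31-base words and gene order came from GENCODE M21, where 95.5% of tested genes had a length.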

Additional observations from a re-analysis of the deposited data

How the results depend on the processing

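With isolation as a replicate block, 0 genes passed in Hopx CR against AL and 0 in Lgr5 CR against AL, and 0 transporters passed in Hopx cells. Abcb1a was then 1.92 in Hopx cells and 2.99 in Lgr5 cells. The block changed no transporter's call, and no paired analysis was possible between lines because each isolation held 1 line only.

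Counts of genes past the threshold moved with the method. In Hopx CR against AL (2 genes) the count was 140 with DESeq2, 7 without the filter, 4 on log2(TPM + 1), 8 on that scale without the filter, and 1 to 3 leaving out each library. In Lgr5 CR against AL (3 genes) it was 365 with DESeq2, 1 with RLE size factors, 83 without the filter, 33 on log2(TPM + 1), 24 on log2(TPM + 0.1), 1 on log2(TPM + 1) without the filter, and 0 to 110 leaving out each library, the highest without Lgr5 AL replicate 1. In Hopx AL against Lgr5 AL (3 genes, 2 higher and 1 lower) it was 1157 with DESeq2, 194 without the filter, 3745 on log2(TPM + 1) (93 higher and 3652 lower), 3886 on log2(TPM + 0.1), 2390 on log2(TPM + 1) without the filter, 22 with those groups alone, and 0 to 110 leaving out each library. In Hopx CR against Lgr5 CR (3 genes) it was 160, 24, 13, 13, 9 and 12 under the same settings, and 1 to 7 leaving out each library. The TPM scale moved the median of all genes to 0.24 in Hopx CR against AL, -0.15 in Lgr5 CR against AL, -0.62 in Hopx AL against Lgr5 AL and -0.25 in Hopx CR against Lgr5 CR on log2(TPM + 1). The cause of the other moves was not tested.

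Of the transporters, 1 passed with DESeq2 in Hopx CR against AL (Abcc2) and 1 in Hopx CR against Lgr5 CR (Abcc4), and 1 (Abcc1) on each of the 3 TPM settings in Hopx AL against Lgr5 AL, at -1.12, -1.39 and -1.12; leaving out any library called 0. Over all settings the adjusted p ran from 0.0437 to 0.889 for Abcc2 in Hopx cells, 0.00244 to 0.856 for Abcc4 in Hopx CR against Lgr5 CR and 0.0196 to 0.572 for Abcc1 in Hopx AL against Lgr5 AL. Directions turned as follows. In Hopx CR against AL, Abcc4 was 0.14 on log2(TPM + 1) with or without the filter and 0.22 on log2(TPM + 0.1), and -0.23 to 0.12 leaving out each library. In Hopx AL against Lgr5 AL on log2(TPM + 1), with or without the filter, and on log2(TPM + 0.1), Abcc2 was -0.69 and -0.81, Abcc3 -0.46 and -0.47 and Abcg2 -0.55 and -0.56; Abcc4 was 0.0081 without the count filter. Leaving out each library there gave -0.020 to 1.61 for Abcb1a, -0.65 to 0.53 for Abcc2, -0.12 to 0.68 for Abcc3, -0.087 to 0.021 for Abcc4 and -0.21 to 0.62 for Abcg2. In Hopx CR against Lgr5 CR, Abcg2 was -0.22 on each TPM scale. Leaving out each library there gave -0.72 to 0.070 for Abcb1a, -0.43 to 0.19 for Abcc1 and -0.016 to 0.14 for Abcg2. Abcc2 kept its direction there, at -1.11 to -0.38 leaving out each library. In Lgr5 CR against AL, Abcc1 was -0.19 to 0.13 over all settings run. In both diet comparisons Abcb1a, Abcc2, Abcc3 and Abcg2 kept their direction under every setting run, with Abcb1a at 1.13 to 2.73 in Hopx cells and 2.63 to 3.45 in Lgr5 cells. Abcb1a and Abcc2 were named from the Lgr5 comparison, so nothing is read from their steady direction there. The low depth of Abcb1b, 21 counts at most, limits any comparison of it.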

Other observations

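Carriers that bring drugs and bile acids into or across the epithelium were measured beside the exporters. Of 16, all tested, 14 had a higher point estimate in Hopx CR than in Hopx AL (median 0.54), 12 without overlap between diets (21.5% of all genes in that direction). There edgeR called 0, 4 had an unadjusted p under 0.05 (5.41% of all genes in that direction) and DESeq2 called 0 (0.922%). The carnitine transporter Slc22a5 averaged 83.0 CPM in Hopx CR and 50.5 CPM in Hopx AL, and 101 CPM in Lgr5 CR and 65.0 CPM in Lgr5 AL. Slc22a23 differed by 0.52 (edgeR adjusted p = 0.552) in Hopx CR against AL. In Lgr5 CR against AL 12 were higher and 4 lower (median 0.45). Without overlap, 2 were higher (7.41% of all genes) and 1 lower, for which no share of all genes is given. There edgeR called 0, 3 had an unadjusted p under 0.05 (9.78% of all genes, either direction) and DESeq2 called 1 (2.45%). The organic anion carrier Slco4a1 averaged 19.9 CPM in Lgr5 CR and 35.8 CPM in Lgr5 AL (-0.84, edgeR adjusted p = 0.262).

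Of 6 genes of glutathione supply, 5 had a higher point estimate in Hopx CR than in Hopx AL and 6 in Lgr5 CR than in Lgr5 AL. In each, edgeR called 0 and DESeq2 called 0 (0.922% and 2.45% of all genes with DESeq2). In Hopx cells 0 had an unadjusted p under 0.05 (5.41% of all genes in the higher direction). In Lgr5 cells 1 did (9.78% of all genes, either direction). Gclc, the catalytic subunit of the rate-limiting enzyme of glutathione synthesis, averaged 103 CPM in Lgr5 CR and 68.8 CPM in Lgr5 AL (0.58, edgeR adjusted p = 0.457).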
